A study of Mus musculus with 12 samples.

Results

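The motile cilia genes described here are 46 genes that encode the regulator, the dynein arms, the rulers, the spokes, the central apparatus and other parts of the moving axoneme. They were taken by symbol from a list that includes Ccdc40 and Cfap157, and all 46 were found among the 19268 genes of the table, 44 by their GENCODE symbol and 2, Dnai1 and Dnai2, by an older symbol. The libraries were made from forebrain RNA of C57BL/6J males, which were juvenile at postnatal day 25 (P25) or adult at day 60 (P60), with 3 libraries in each of 4 groups. The 6 knock-out (KO) libraries, of the groups P25-KO and P60-KO, came from mice homozygous for a germline deletion of internal Shank3 exons, in a line made by Biocytogen, and the 6 wild-type (WT) libraries, of the groups P25-WT and P60-WT, from mice without it. Heterozygous mice were not among these libraries. The study compared KO with WT at each age to see how the transcriptome depends on Shank3, a scaffold protein of excitatory synapses. Ccdc40 and Cfap157 were selected on their higher values in KO in these same libraries, so their genotype differences are given below as a description with no test. The question was whether these 2 genes moved with the rest of the ependymal cilia program.

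Motile cilia beat because dynein arms on the outer doublet microtubules of the axoneme slide one doublet against the next, while the nexin-dynein regulatory complex, the radial spokes and the central apparatus turn that sliding into a bend. In the brain they are carried by ependymal cells, which line the ventricles and move cerebrospinal fluid, and the forkhead factor FOXJ1, together with RFX factors, switches on their genes. The coiled-coil proteins CCDC39 and CCDC40 form the ruler that sets the repeat along the doublet at which inner dynein arms and spokes attach, and loss of either causes primary ciliary dyskinesia in people. CFAP157 is a cilia and flagella associated protein whose gene is a FOXJ1 target.

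Ccdc40 (GRCm38, chr11:119228572-119265238, plus strand) starts next to Tbc1d16, which is read from the opposite strand. The stretch between the annotated exons of the pair, chr11:119228500-119228571, is shown because it is the only part of the RefSeq promoter window of Ccdc40 that lies outside both genes, and it is printed in lower case because it held none of the motifs searched. In the other stretches the capitals mark the letters that matched the RFX X-box with up to 2 mismatches. Cfap44 and Lrrc23 are shown because they differed with age below, and Spag16 and Mlf1 because they hold the motif farther from the start.
Ccdc40, chr11:119228500-119228571, plus strand: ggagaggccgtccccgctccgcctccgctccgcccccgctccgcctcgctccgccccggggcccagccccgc
Cfap44, chr16:44394767-44394790, plus strand: gggacGTTGCTATGGCAACcgcag
Lrrc23, chr6:124779730-124779789, minus strand: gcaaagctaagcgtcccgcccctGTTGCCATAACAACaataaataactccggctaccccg
Spag16, chr1:69826844-69826903, plus strand: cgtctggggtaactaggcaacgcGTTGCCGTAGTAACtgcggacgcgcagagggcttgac
Mlf1, chr3:67373969-67374028, plus strand: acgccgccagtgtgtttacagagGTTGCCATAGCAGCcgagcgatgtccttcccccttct

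The sequences are from RefSeq promoters on GRCm38.p6, which run from 250 bases before to 50 bases after a start, and both strands were searched. Of the 46 motile cilia genes, 39 had an entry, with 46 promoters in all. The X-box was found in the promoters of 11 of these 39 genes (28.2%) and of 780 of all 27025 genes (2.89%). Its core letters GTTGCC, whose site overlaps the X-box, was found for 15 of 39 genes (38.5%) and for 14.1% of all genes, and the forkhead letters GTAAACA for 3 of 39 (7.69%), Mlf1, Ak7 and Cfap43, and for 4.05% of all genes. Cfap44, a protein of the doublet surface, held the only X-box match with 1 mismatch, 27 bases before its start. The promoter of Ccdc40 held none of the 3 motifs within its 300-base window, nor did that of its partner Ccdc39, and for Cfap157 and Foxj1 no promoter was searched. A match in these letters is a description of the sequence and was not tied to any measurement here.

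The deposited values are counts that the authors normalized over all 12 libraries, called normalized counts below. Their sums ran from 30568259 to 32348554 per library, but the reads behind them are not known. Shank3, the mutated gene, was at 4535 to 5729 normalized counts in the KO libraries and 8936 to 11683 in the WT libraries, without overlap. Cerebellum and hindbrain markers (5 of 7 listed genes in the table) summed to 1249 in P60-WT replicate 2 and 390.1 in P60-KO replicate 1, against 72.5 to 144 in the other 10 libraries. Olfactory bulb markers (5 of 5), from a region that the study's methods say was removed, summed to 774 to 1445 with overlap among the 4 groups. Forebrain neuron markers (10 of 10) summed to 50134 to 60575.

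All 46 motile cilia genes were measured in every library, with no value of 0, and all 46 passed the minimum mean of 10 normalized counts in each comparison. They were low for this tissue, in which ependymal cells are a small share of the cells. The gene means over 12 libraries ran from 11.5 (Dnaaf1, a dynein arm assembly factor) to 551 (Ccdc39), with a median of 81.0 against 400.3 for all genes of the table. Divided by exon length, the median was 20.1 normalized counts per kb, against 94.8 for all genes, and 27.2% of all genes lay below it. Since a bulk library mixes all cells, fewer ependymal cells and less RNA per cell cannot be told apart in any of the values below.

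Per kb of exon, the most abundant motile cilia gene was the radial spoke gene Rsph9, at 151 ± 33.2 normalized counts per kb (SD, n = 12), followed by Drc1 of the nexin-dynein regulatory complex at 143 ± 13.6 and Foxj1 at 140.5 ± 13.8. These 3 levels did not differ beyond their spread. The ruler gene Ccdc39 stood at 74.0 ± 13.0 per kb and led its group, while Ccdc40 was at 14.8 per kb. The highest levels in the other role groups were 67.5 ± 14.4 for Ccdc151 of the outer arm docking complex, 51.1 ± 8.81 for Tmem212, 37.5 ± 7.90 for Cfap65 of the central apparatus, 30.6 ± 7.51 for the tektin Tekt2, 30.6 ± 5.08 for the assembly factor Ccdc103 and 24.4 ± 2.5 for the inner arm heavy chain Dnah1. The lowest level was 2.1 per kb, for Spag17 of the central apparatus.

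Ccdc40 was at 150.3, 128 and 73.9 normalized counts in the P25-KO libraries and at 49.2, 93.4 and 48.2 in the P25-WT libraries. At P25 the groups overlapped, since P25-WT replicate 2 lay above P25-KO replicate 3. At P60 it was at 102, 87.0 and 165 in KO and at 47.0, 74.2 and 54.4 in WT, where every KO library lay above every WT library. The group means were 118 ± 39.3 against 63.6 ± 25.8 at P25 and 118 ± 41.4 against 58.6 ± 14.1 at P60 (SD, n = 3), which corresponds to log2 fold changes of 0.88 (SE 0.33) and 0.97 (SE 0.26). Both are the values by which the gene was selected. Its exons overlap no other gene, and none of its 31-base words occurs in another gene's transcripts.

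Cfap157 (chr2:32777381-32784428, minus strand) was at 53.2, 27.7 and 19.1 normalized counts in P25-KO and at 10.1, 10.9 and 10.7 in P25-WT, with every KO library above every WT library. At P60 only 1 KO library, replicate 2, stood high, with 11.6, 35.0 and 9.72 in KO and 14.6, 6.90 and 9.27 in WT, so the groups overlapped. The log2 fold change was 1.45 (SE 0.38) at P25 and 0.65 (SE 0.51) at P60, also the selecting contrast. The P60 value was 0.10 without P60-KO replicate 2, 0.97 without P60-KO replicate 3 and 0.42 without P60-WT replicate 2.

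**Figure D1:**
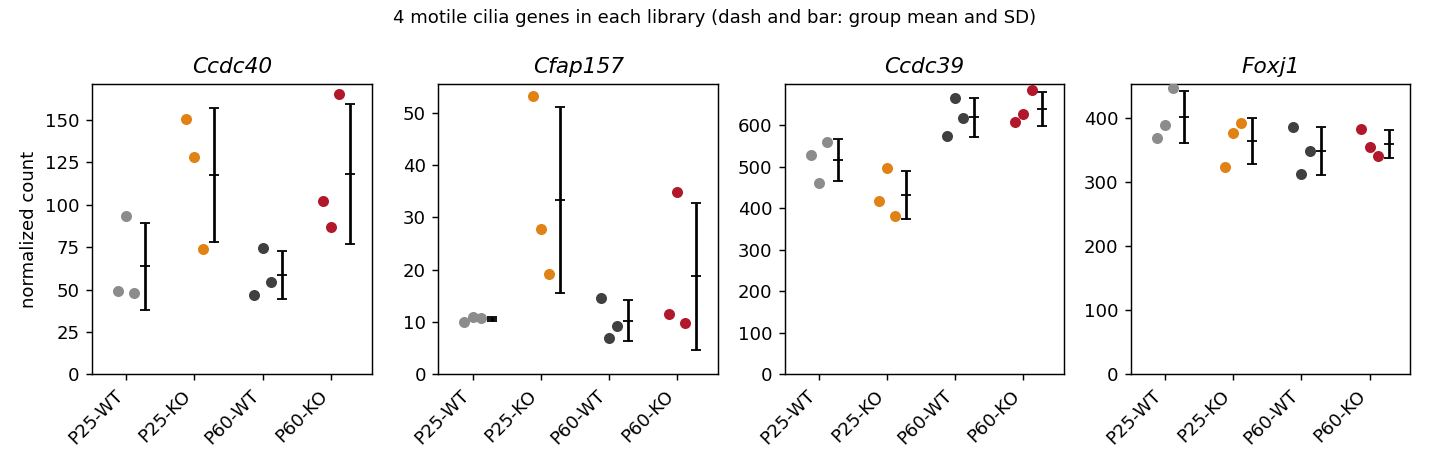
Normalized counts (y axis, from 0) of Ccdc40, Cfap157, Ccdc39 and Foxj1 in the 3 libraries of each group (points), with the group mean and SD (dash and bar). Ccdc40 in P60-KO, at 87.0 to 165, lies above P60-WT, at 47.0 to 74.2, whereas Foxj1 overlaps between genotypes at both ages.

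The genes that flank Ccdc40 on chromosome 11 were read beside it. Tbc1d16 was at 2677 to 2925 normalized counts in P25-KO and 2675 to 3032 in P25-WT, and its log2 fold changes were -0.05 (SE 0.08) at P25 and -0.08 (SE 0.05) at P60. Gaa, the lysosomal acid alpha-glucosidase, had log2 fold changes of 0.05 (SE 0.09) at P25 and -0.01 (SE 0.04) at P60. Neither passed the test at either age.

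Foxj1, which encodes the FOXJ1 regulator, was at 323, 377 and 392 normalized counts in P25-KO, 369, 389.6 and 447 in P25-WT, 383, 354 and 340.2 in P60-KO and 386, 312 and 348 in P60-WT. The genotypes overlapped at both ages, with log2 fold changes of -0.14 (SE 0.12) and 0.05 (SE 0.11). The P25 value was -0.057 without P25-KO replicate 1 and -0.061 without P25-WT replicate 3. The P60 value was -0.031 without P60-WT replicate 2, -0.00084 without P60-KO replicate 1, 0.084 without P60-KO replicate 3 and 0.12 without P60-WT replicate 1, so its sign rested on single libraries. Ccdc39, the partner of Ccdc40 in the ruler, was at 418, 496 and 381 in P25-KO and 529, 459.7 and 558 in P25-WT, where its log2 fold change was -0.26 (SE 0.13). At P60 it was 0.05 (SE 0.09).

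Of the other 44 motile cilia genes, none passed the test of KO against WT at P25 or at P60 (limma on log2(normalized count + 1), Benjamini-Hochberg adjusted p over all genes tested under 0.05). The share of all genes called was 0.00571% at P25 and 0.00568% at P60, which is Shank3 alone in both. At an unadjusted p under 0.05 there were 2 of these 44 genes at P25, Cfap70 and Lrrc23 (4.55%), and 1 at P60, Cfap44 (2.27%), where 1.36% and 2.5% of all genes tested had such a p. The median log2 fold change over the 44 genes was -0.07 at P25, with 16 positive and 28 negative, and -0.01 at P60, with 22 positive and 22 negative. The medians over all genes tested were -0.01 and 0.00.

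At P25 the largest values below 0 belonged to Cfap70, a central apparatus gene, and Lrrc23, a radial spoke gene. Cfap70 was at 20.1, 22.1 and 17.4 normalized counts in P25-KO and 51.8, 27.9 and 30.4 in P25-WT, a log2 fold change of -0.81 (SE 0.30). Lrrc23 was at 35.0, 35.6 and 53.4 in P25-KO and 55.5, 80.9 and 59.1 in P25-WT, a log2 fold change of -0.65 (SE 0.24). Every P25-KO library lay below every P25-WT library for these 2 genes alone of the 46, while 2.5% of all genes tested had that order. Cfap157, selected on this contrast, was the only one with every KO library above, an order that 2.26% of all genes had. Dnah11, an outer arm heavy chain, followed at -0.54 (SE 0.29), and Meig1 had the largest value above 0 after the 2 selected genes, 0.39 (SE 0.41). Meig1 was at 31.9, 30.5 and 28.4 in P25-KO and at 16.9, 46.8 and 14.9 in P25-WT, so a single WT library set its spread. Its value was 0.89 without P25-WT replicate 2, 0.18 without P25-WT replicate 1 and 0.097 without P25-WT replicate 3. Dnah11 went to -0.26 without P25-WT replicate 3, and Cfap70 to -0.53 without P25-WT replicate 1.

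At P60 every KO library lay above every WT library for Ccdc40, which was selected on this contrast, and for 4 of the other 44 genes, where 4.16% of all genes tested had that order. The 4 were Dnah1, Drc1, Cfap43 and the outer arm docking gene Ccdc114. Their differences were small. Drc1 was at 425, 416 and 428 in P60-KO and 383, 303 and 414 in P60-WT, a log2 fold change of 0.22 (SE 0.12). Cfap43 was at 90.4, 90.5 and 90.9 in P60-KO and 80.4, 68.8 and 63.3 in P60-WT, with 0.36 (SE 0.16). No motile cilia gene had every KO library below, an order found in 3.63% of all genes. After Ccdc40 and Cfap157 the largest value above 0 was 0.50 (SE 0.48) for Dnaaf1, and the largest below 0 were -0.45 (SE 0.19) for Cfap44, -0.37 (SE 0.38) for Spag17 and -0.34 (SE 0.19) for Hydin, both central apparatus genes. These values moved with single libraries. Spag17 was at -0.023 without P60-KO replicate 3, -0.22 without P60-WT replicate 2 and -0.60 without P60-KO replicate 1. Dnaaf1 was at 0.19 without P60-WT replicate 3, 0.87 without P60-KO replicate 3 and 0.79 without P60-WT replicate 1. Hydin was at -0.21 without P60-KO replicate 1. Dnaaf1 shares 19.9% of its 31-base words with Taf1c and Spag17 shares 9.31% with Wdr3, both on the opposite strand, and their values are uncertain for that reason.

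**Figure D2:**
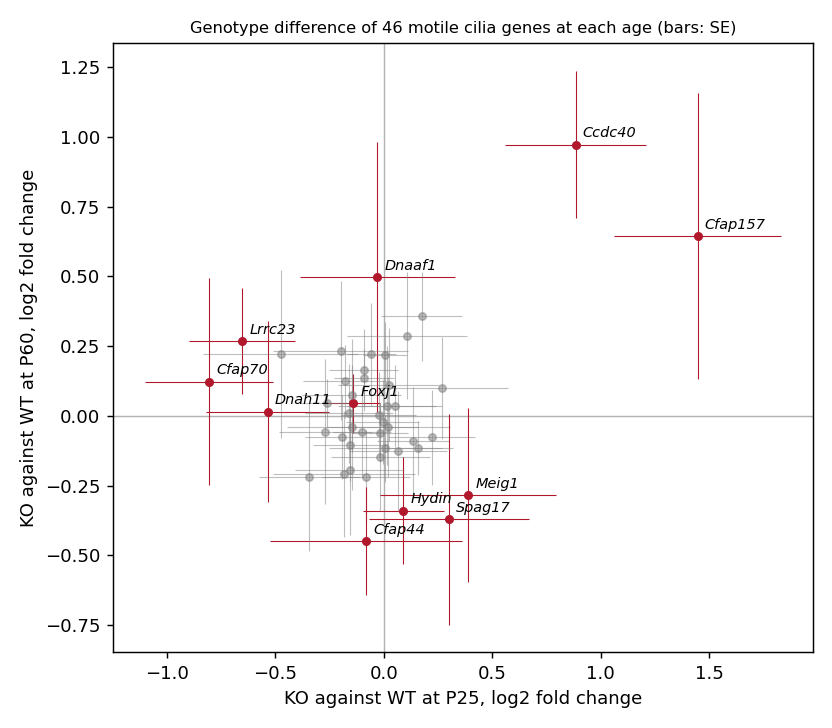
Log2 fold change of KO against WT for the 46 motile cilia genes at P25 (x axis) and at P60 (y axis), with the standard errors as bars and the named genes in red. Ccdc40, at 0.88 and 0.97, and Cfap157, at 1.45 and 0.65, are the genes selected on this contrast, and the other genes surround 0 at both ages.

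The coefficient of variation over the 12 libraries was 45.2% for Ccdc40 and 75.9% for Cfap157, the highest of the 46 genes. The median was 20.3% for the motile cilia genes and 13.8% for all genes tested. This measure holds the genotype difference on which the pair was selected, so its rank partly restates the choice. The SD of log2(normalized count + 1) within groups does not hold it, and there Cfap157 ranked 1 of 46, at 0.65, and Ccdc40 ranked 7, at 0.48, behind Cfap44 at 0.59 and Dnaaf1 at 0.51 among others. By the ratio of the highest library to the lowest, Ccdc40 also ranked 7, at 3.51 times, after Cfap157 at 7.70 and Cfap44 at 5.54, with a median of 2.02 over the 46 genes. P60-KO ran from 87.0 to 165 for Ccdc40 and from 9.72 to 35.0 for Cfap157, where the highest library was replicate 3 for Ccdc40 and replicate 2 for Cfap157. In P25-KO the pair had the same order, with replicate 1 highest and replicate 3 lowest for both genes.

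To see whether the pair moved with the cilia genes, a cilia score was made for each library as the mean, over the genes, of the deviation of log2(normalized count + 1) from the gene's mean over the 12 libraries. The score over all 46 genes was 0.03, -0.06 and -0.12 in P25-KO, -0.07, -0.01 and 0.00 in P25-WT, 0.04, 0.05 and 0.07 in P60-KO and 0.01, 0.02 and 0.03 in P60-WT. The genotypes overlapped at P25, and at P60 every KO score lay above every WT score. Ccdc40 and Cfap157 are part of that score. Without the pair, the score of the other 44 genes was 0.05, 0.02 and 0.07 in P60-KO and 0.03, 0.05 and 0.06 in P60-WT, so the P60 groups overlapped. At P25 it was -0.03, -0.10 and -0.13 in KO and -0.04, 0.00 and 0.03 in WT, again with overlap. Against the score of the other 44 genes, Ccdc40 had a Pearson r of -0.11 (Spearman rho 0.03) and Cfap157 of -0.49 (rho -0.66) over the 12 libraries. These points share the 4 groups, and their r holds the genotype difference on which the pair was selected. With group means subtracted, r was 0.56 for Ccdc40 and 0.15 for Cfap157. Without the libraries with the 2 scores farthest from the median, P25-KO replicates 3 and 2, r was 0.04 and -0.47. Both are descriptions with no test, and r for Ccdc40 changed sign with the libraries used. Leaving out P60-KO replicate 3 gave -0.33 and leaving out P25-KO replicate 2 gave 0.06.

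Gene by gene, Ccdc40 had a positive r with 22 of the other 45 motile cilia genes and an r of at least 0.5 with 1 of them (2.22%), against 1.81% of all genes tested. That gene was Cfap126, a protein needed to place basal bodies, at 0.71. The next were Cfap157 at 0.45, Dnai2 at 0.33, Spag6l at 0.32 and Tekt1 at 0.28. With Ccdc39 r was -0.10 and with Foxj1 -0.43. These r run over all 12 libraries and hold the genotype difference on which Ccdc40 was selected. A low r with genes that lack that difference is therefore partly set by the choice. Outside the list, the closest profiles were Bud13 at 0.89, Armc10 at 0.82, Yes1 at 0.81, Ogdhl at 0.79 and Nrap at 0.79.

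Cfap157 had a positive r with 17 of the other 45 genes and an r of at least 0.5 with 1 (2.22%), against 2.75% of all genes. Its nearest motile cilia genes were Dnai2, an intermediate chain of the outer arm, at 0.63, then Ccdc40 at 0.45, Meig1 at 0.41, Dnai1 at 0.36 and Dnaaf1 at 0.36. The closest genes overall were Thoc5 at 0.87, Bag5 at 0.84, Slc25a28 at 0.81, Tmem26 at 0.80 and Ttc39aos1 at 0.80. As for Ccdc40, these r hold the genotype difference on which Cfap157 was selected. The r between Ccdc40 and Cfap157 themselves was 0.45, with a rho of 0.27, which partly restates the selection of both on higher values in KO. With group means subtracted r was -0.12 and rho -0.12.

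The other motile cilia genes also varied in how far they followed one another. Each gene's r with the score of the 45 others was at least 0.5 for 9 of 46 (19.6%), against 19.5% of all genes for the score of all 46, and its median was 0.09, with 24 positive and 22 negative. The highest were Cfap46 at 0.83, Cfap44 at 0.76, Dnah6 at 0.73, Dnah12 at 0.72 and Spag16 at 0.66. The lowest was Tekt2 at -0.72, and Foxj1 was at -0.43. Of all genes, those with the highest r to the score were Exoc5 at 0.95, Chrm2 at 0.90, Gabrr2 at 0.89, Cep95 at 0.88 and Apex2 at 0.88. The motile cilia genes thus followed the score about as often as all genes did. An r with it cannot show whether Ccdc40 or Cfap157 moved with a shared program.

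**Figure D3:**
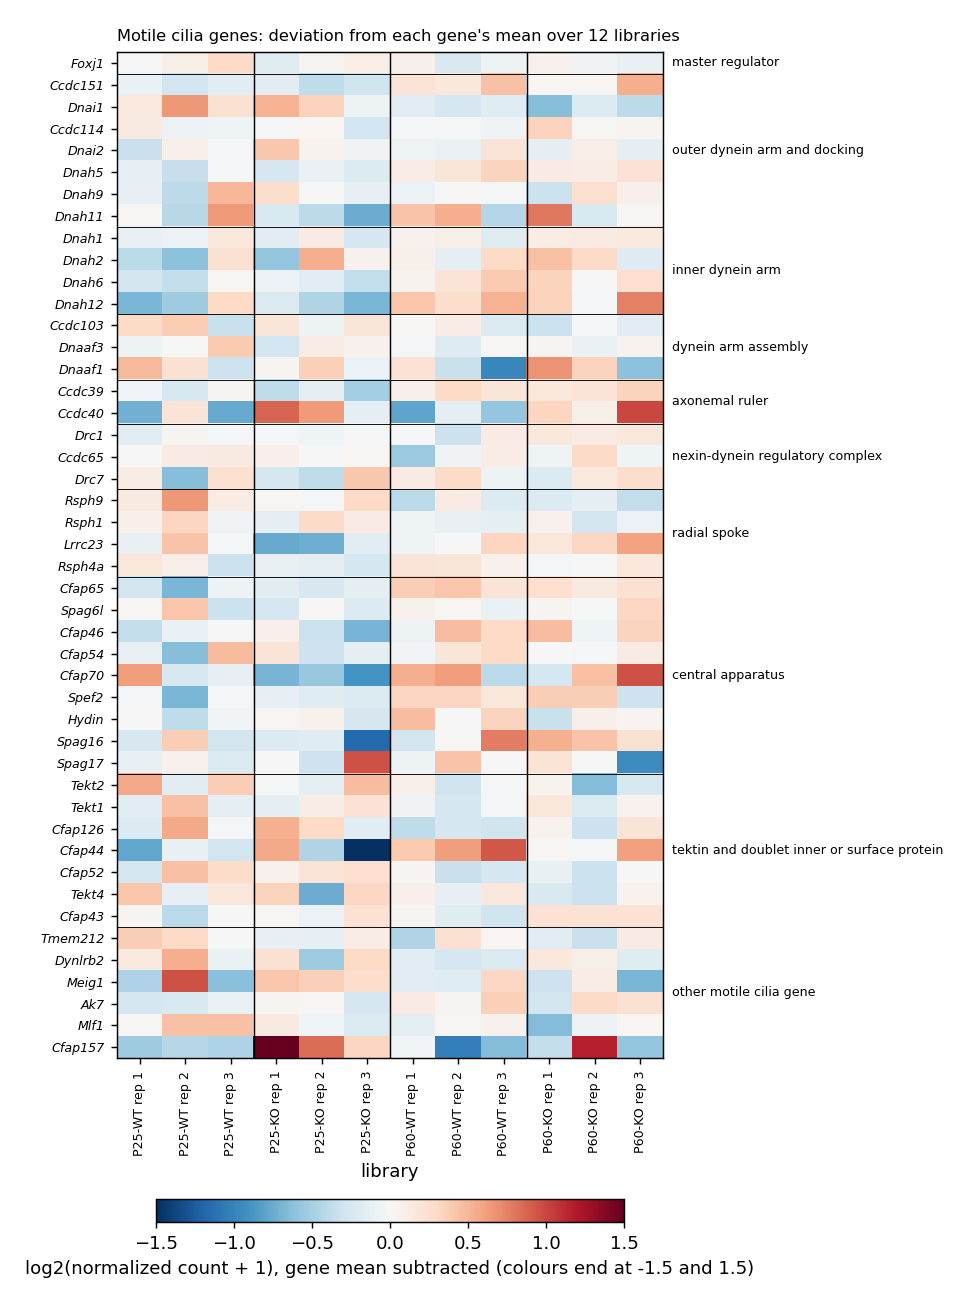
Deviation of log2(normalized count + 1) from each gene's mean over the 12 libraries (colour, from -1.5 in blue to 1.5 in red) for the 46 motile cilia genes (rows, by role) in each library (columns, by group). Ccdc40 and Cfap157 are red in several KO libraries where the genes around them are pale, and no library is red or blue throughout.

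Of the tests run on the motile cilia genes, those of age were the only ones that any gene passed. In WT, 2 of the 46 genes rose from P25 to P60 and none fell, where 3.66% of all genes tested rose and 4.99% fell. That balance depends on the scaling, since 644 genes rose and 877 fell as deposited, and 991 rose and 681 fell with library totals made equal (5.64% and 3.87%). Cfap44 was at 96.5, 153 and 137 normalized counts in P25-WT and 218, 257 and 317 in P60-WT. Every adult library lay above every juvenile one, an order that 3099 of the 17581 genes tested had. The log2 fold change of Cfap44 was 1.04 (SE 0.21, adjusted p = 0.0226). Cfap65 was at 238, 178 and 272 in P25-WT and 369.5, 383 and 327 in P60-WT, a log2 fold change of 0.67 (SE 0.16, adjusted p = 0.0411). The median log2 fold change of the 46 genes was -0.01, with 21 positive and 25 negative, against 0.00 for all genes. Both calls were lost without P25-WT replicate 1 or any 1 of the 3 P60-WT replicates, where 0 genes of the 46 were called and adjusted p ran from 0.0548 to 0.131. One of these was P60-WT replicate 2, the library with the high hindbrain markers. Both calls were also lost when the variance was fitted without a trend (adjusted p of 0.0743 for Cfap44 and 0.0945 for Cfap65), and that of Cfap44 with all 12 libraries in 1 fit (adjusted p = 0.0715). Calls over all genes fell too, to 1.36% without P25-WT replicate 1 and 1.31%, 2.14% and 0.693% without P60-WT replicates 1, 2 and 3. The share was 1.09% without a variance trend, and 19.6% with all 12 libraries in 1 fit. The losses with a library left out or without a trend were therefore not particular to the cilia genes.

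In KO, 5 genes rose and 1 fell, where 9.37% of all genes rose and 11.3% fell (1649 and 1992 genes). With library totals made equal, 7 of the 46 rose and 1 fell, where 2108 of all genes rose and 1620 fell (12% and 9.21%). The genes added were Dnah5, an outer arm heavy chain, at 0.37 (SE 0.11, adjusted p = 0.0358) and Ccdc151 at 0.52 (SE 0.16, adjusted p = 0.041). Ccdc39 went from 418, 496 and 381 in P25-KO to 606, 625 and 684 in P60-KO, a log2 fold change of 0.57 (SE 0.11, adjusted p = 0.00583). Cfap65 went from 257, 242 and 258 to 343, 316 and 337, a log2 fold change of 0.39 (SE 0.10, adjusted p = 0.0175). These 2 genes had the smallest SE of the 6. The age groups did not overlap for any of the 6, an order that is common here. Of all 17596 genes tested in KO, 3320 had every P60 library above every P25 library and 3608 had every one below.

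Lrrc23 went from 35.0, 35.6 and 53.4 in P25-KO to 67.5, 74.4 and 91.2 in P60-KO, a log2 fold change of 0.91 (SE 0.22, adjusted p = 0.019). Cfap70 went from 20.1, 22.1 and 17.4 to 27.4, 46 and 65.2, with 1.1 (SE 0.32, adjusted p = 0.0363). These are the genes that were lowest in P25-KO against P25-WT, and both comparisons use the same P25-KO libraries. Dnah12, an inner arm heavy chain, went from 39.4, 33.3 and 28.1 to 58.7, 45.1 and 77.9, with 0.81 (SE 0.25, adjusted p = 0.0446). The call of Dnah12 was lost under 9 of the 15 alternatives that tested it and that of Cfap70 under 8 of 15, against 3 of 16 for Lrrc23 and for Cfap65 and 6 of 16 for Dnai1.

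The gene that fell was Dnai1, an intermediate chain of the outer arm, from 151, 134 and 100 to 67.1, 91.4 and 80.0, with -0.68 (SE 0.19, adjusted p = 0.0325). In WT it was at 117, 166 and 124 and then at 94.1, 88.7 and 93.0, with -0.54 (SE 0.17, adjusted p = 0.0832). One of its exons overlaps Enho on the opposite strand, though no 31-base word was shared. The median log2 fold change of the 46 genes in KO was 0.08, with 28 positive and 18 negative, against 0.01 for all genes. The number called was 2 without P25-KO replicate 2, 3 without P60-KO replicate 1, which had the second-highest hindbrain markers, and 1 without P60-KO replicate 3. In these fits 15.9%, 13.2% and 12.4% of all genes were called, where 9.37% rose and 11.3% fell in the main fit, so calls were lost over all genes too. Ccdc39 was called under each of the alternatives tried, whereas 15.4% of its 31-base words are shared with Ttc14 on the opposite strand.

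Ccdc40 and Cfap157 were not among the genes called with age. Ccdc40 had log2 fold changes of -0.07 (SE 0.30, adjusted p = 0.893) in WT and 0.01 (SE 0.29, adjusted p = 0.977) in KO. For Cfap157 they were -0.10 (SE 0.39, adjusted p = 0.893) and -0.90 (SE 0.50, adjusted p = 0.23), the latter with group means of 33.3 ± 17.7 in P25-KO and 18.8 ± 14.1 in P60-KO and overlapping libraries. Foxj1 was at -0.20 (SE 0.13, adjusted p = 0.318) and -0.02 (SE 0.10, adjusted p = 0.922).

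Whether the age difference depended on genotype was tested as an interaction in limma, which 0 of 17594 genes (0%) passed, with 288 at an unadjusted p under 0.05. Among the motile cilia genes that was 1, Lrrc23, at 0.92 (SE 0.31), named after its value was seen. The median of the interaction was 0.07 over the 46 genes and 0.01 over all genes. An age effect that passed in KO and not in WT is therefore not shown to differ between them.

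**Figure D4:**
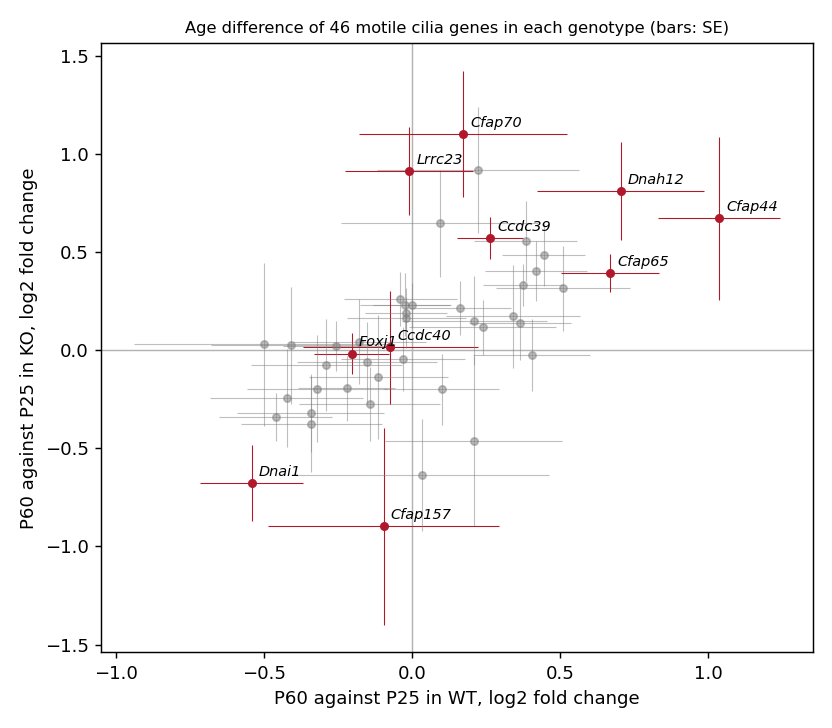
Log2 fold change of P60 against P25 for the 46 motile cilia genes in WT (x axis) and in KO (y axis), with the standard errors as bars. The genes called in either genotype, with Ccdc40, Cfap157 and Foxj1, are in red, and Cfap44, Dnah12 and Cfap65 lie above 0 in both while Dnai1 lies below 0 in both.

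By role, the genes of the central apparatus and the inner dynein arms leaned to higher values at P60, and the tektins and doublet proteins to lower values. Of 9 central apparatus genes, 8 had a positive log2 fold change in WT (median 0.24) and 7 in KO (median 0.32), with 1 (11.1%) and 2 (22.2%) called higher, where 3.66% and 9.37% of all genes were. The 4 inner arm genes had medians of 0.38 and 0.31, with 0 and 1 (25%) called higher. Of the 7 tektin and doublet genes, 6 were negative in WT (median -0.15) and 5 in KO (median -0.14), with Cfap44 in WT the only one called. The 7 outer arm genes were split, 4 positive and 3 negative in each genotype, though 6 were positive in WT with library totals made equal. These groups are small, and their counts describe the list without a test. Role also went with exon length, so the part of each cannot be told apart here. Exons summed to 12009 to 14968 bases in the inner arm genes and 4289 to 18037 in the central apparatus genes. In the tektin and doublet genes they summed to 1622 to 8405 bases, the longest being Cfap44.

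In WT the share of positive age differences was higher in each longer class of exon length, and in KO it was highest in the middle class. In WT, 11 of the 13 motile cilia genes with over 8000 bases of exon had a positive log2 fold change (median 0.38), whereas 19 of the 22 genes under 3000 bases had a negative one (median -0.21). In KO these were 10 of 13 (median 0.32) and 14 of 22 (median -0.11). Of the 11 genes of 3000 to 8000 bases, 7 were positive in WT (63.6%, median 0.16) and 10 in KO (90.9%, median 0.23), the latter above the 76.9% of the longest genes. Of all genes tested with over 8000 bases, 71.4% were positive in WT (median 0.14) and 67.6% in KO (median 0.11). Of those of 3000 to 8000 bases, 51.7% and 51.2% were positive, and of those under 3000 bases 37.2% (median -0.12) and 42.4% (median -0.06), so that over all genes the share was highest in the longest class in both genotypes. The motile cilia genes were not tested against them.

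Across the 46 genes the Spearman rho between exon length and the age difference was 0.70 in WT and 0.51 in KO, against 0.25 and 0.18 across all genes tested. Genes are not independent replicates, and these are descriptions. The genotype differences had smaller rho values among the 46 genes, 0.21 at P25 and -0.12 at P60. With each library's trend on exon length removed, an alternative chosen after seeing the data, 2 genes were called in WT and 5 in KO, and Ccdc40 stayed at 0.89 at P25 and 0.99 at P60. Dnah12 was the call lost in KO (adjusted p = 0.065).

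**Figure D5:**
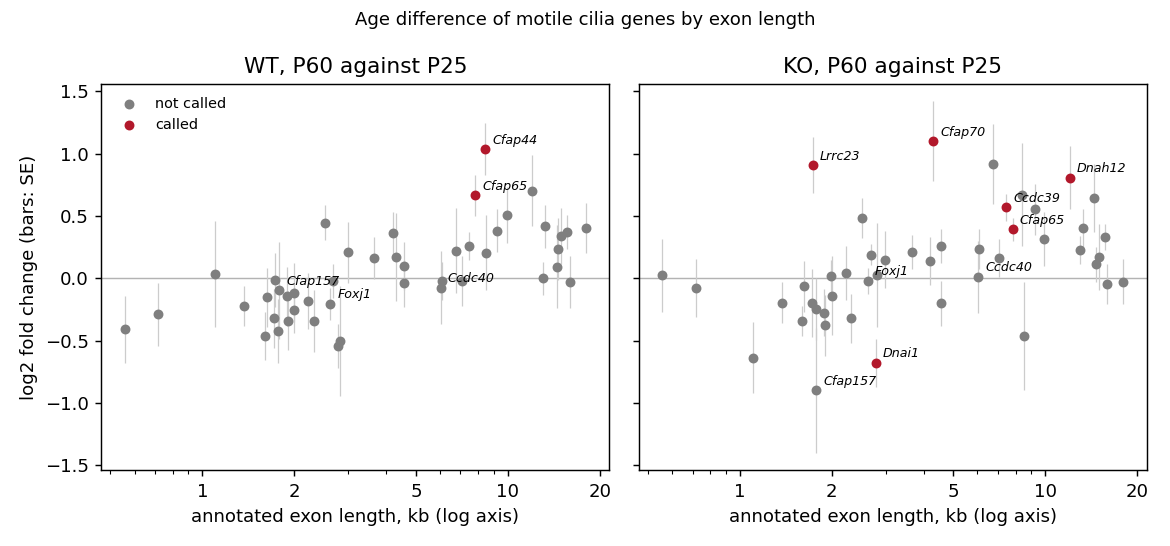
Log2 fold change of P60 against P25 (y axis, standard errors as bars) of the 46 motile cilia genes against the annotated exon length in kb (x axis, log scale), in WT (left) and KO (right), with the called genes in red. Genes over 8 kb lie mostly above 0 and genes under 3 kb mostly below it.

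The other genes of the pathway were described from lists that hold none of the 46. Of 86 further motile cilia genes, 81 were tested in WT, with a median log2 fold change of 0.22. Among them 2 rose (2.47%, against 3.66% of all genes) and 1 fell (1.23%, against 4.99%). Named after their values were seen, these were Cfap69 of the central apparatus at 0.80 (SE 0.13), Wdr78, a dynein intermediate chain, at 0.53 (SE 0.14) and the ciliary kinesin Kif19a at -1.37 (SE 0.16). In KO 78 were tested, 4 rose (5.13%, against 9.37% of all genes) and 2 fell (2.56%, against 11.3%), with a median of 0.09. Cfap69 was at 0.61 (SE 0.09), Wdr78 at 0.62 (SE 0.13), Kif9 at 0.52 (SE 0.13) and Bbof1 at 0.65 (SE 0.13), while Kif19a was at -1.03 (SE 0.16) and Tppp3 at -0.27 (SE 0.07). None of these lists held a gene called for genotype at either age.

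Intraflagellar transport and BBSome genes, which carry cargo in motile and primary cilia alike, numbered 32. In WT 1 rose, the retrograde motor Dync2h1 at 0.67 (SE 0.13). In KO 4 rose, Dync2h1 at 0.54 (SE 0.08), Bbs2 at 0.45 (SE 0.13), Ttc8 at 0.29 (SE 0.09) and Wdr19 at 0.25 (SE 0.07), and Ift22 fell at -0.29 (SE 0.08). The share that rose was 12.5% in KO and 3.12% in WT, against 9.37% and 3.66% of all genes. The share that fell in KO was 3.12%, against 11.3%. Of 16 listed regulators of multiciliation 13 were in the table. None passed in WT, and Rfx1 rose in KO, at 0.29 (SE 0.09), which is 7.69% of these regulators against 9.37% of all genes.

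Markers of ependymal cells that are not part of the axoneme were read beside the cilia genes. The 6 listed genes, all in the table and none at 0, summed to 1519 to 2186 normalized counts in the 6 P25 libraries and to 963 to 1223 in the 6 P60 libraries, without overlap. All 6 had a negative log2 fold change in both genotypes. In WT Mia, Cd24a and Prom1 fell, at -1.19 (SE 0.28), -0.64 (SE 0.15) and -0.54 (SE 0.14). In KO Cd24a and Prom1 fell, at -0.49 (SE 0.09) and -0.91 (SE 0.14). That is 50% and 33.3% of the list, against 4.99% and 11.3% of all genes. For KO against WT none of the 6 passed at either age, and their sums overlapped at P25, at 1567 to 2002 in KO and 1519 to 2186 in WT. At P60 they were 963 to 1154 in KO and 1204 to 1223 in WT, below WT in each KO library. Gene by gene, only 1 of the 6, Prom1, had that order, which 3.63% of all genes had. Prom1 was at 354 ± 73.4 in P60-KO and 450 ± 61.8 in P60-WT (SD). The median log2 fold change of the 6 at P60 was -0.06, with 2 positive and 4 negative. Several of these markers, Prom1 and Cd24a among them, are also made by other cells. Their part in the age differences of the cilia genes was not tested.

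Choroid plexus markers, from the epithelium that borders the ependyma and whose own cells carry cilia, were read likewise. All 16 were in the table and none was at 0. They summed to 11728 to 15574 normalized counts at P25 and 13965 to 20023 at P60, with most of the sum from the transthyretin gene Ttr. The mean over the 12 libraries was 12473 for Ttr and 506 for Kl. The other markers of the list lay below 400.3, the median for all genes of the table. In WT 2 rose, Kl and Prlr, at 0.72 (SE 0.12) and 0.94 (SE 0.17). In KO 5 rose, Kl, Prlr, Otx2, Kcnj13 and F5, by 0.50 to 0.85 on the log2 scale, and Lbp fell, at -0.41 (SE 0.13). Those that rose are 12.5% of the list in WT and 31.2% in KO, against 3.66% and 9.37% of all genes. Lbp, which fell in KO, is 6.25% of the list, against 11.3%. Of the 9 astrocyte markers 4 (44.4%) fell in each genotype, Gfap among them at -0.56 (SE 0.09) in WT and -0.43 (SE 0.06) in KO, while 4.99% and 11.3% of all genes fell. With library totals made equal, 2 of the ependymal and 2 of the astrocyte markers fell in WT, and Lbp was not called in KO. None of the choroid plexus or astrocyte markers passed for genotype, and the part of any of these cell types in the values of the cilia genes was not tested.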

How the data were processed

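According to the study's methods, RNA from forebrain without olfactory bulb was prepared with a TruSeq RNA kit, and the authors quantified transcripts with Salmon 1.1.0 with GC bias correction, imported them with tximport and normalized them with DESeq2 (R 3.6.2 and DESeq2 1.26.0 in the submitters' processing notes, build GRCm38). The deposited values are a signal on a count scale, normalized counts that are not whole reads, so depth is unknown, no count model was fitted and precision is limited by having 3 libraries in each group. The study gives its replicates as separate mice.

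Groups were taken from the sample titles. In place of the study's count test, limma 3.58.1 in R 4.3.3 (lmFit, eBayes with trend) was run on log2(value + 1), which understates the change of low genes, over all genes with a mean of at least 10 in the libraries of the fit, with Benjamini-Hochberg adjustment over them and a threshold of 0.05. Genotypes were compared within age, ages within genotype, and the interaction over 12 libraries. The script was tested on simulated data. Symbols, exon lengths (the union of annotated exons) and shared 31-base words came from GENCODE M21. The reference transcriptome and any use of strand in counting are not given in the sources used here.

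The genes and lists were chosen with earlier results of these data known. The genes named were Ccdc40, Cfap157 and Foxj1, up to 5 genes per direction called with age, the 3 largest genotype differences per direction, the most abundant gene per role and the 5 closest profiles. Replicate numbers were not treated as pairs in the main fits. Correlations of same-numbered deviations ran from -0.07 to 0.17, and for KO against WT at P60 all were positive, at 0.06, 0.17 and 0.13. This check cannot exclude a pairing or a shared batch. The alternatives were other pseudocounts, minimum means, scalings and variance fits, a replicate block, 1 fit of all libraries, each library left out, and a length term added later. A gene that bears on the certainty of 1 value is not reported here.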

Additional observations from a re-analysis of the deposited data

How the results depend on the processing

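No gene called changed direction under the alternatives run, but the age calls rest on few libraries. Of the 46 genes, the 2 called with age in WT became 0 with the variance fitted without a trend and 0 to 3 with 1 library left out, and the 6 called in KO became 3 with the replicate block, which also kept 2 in WT and 0 in both genotype comparisons, and 1 to 6 with 1 library left out. The number called in KO was 8 with library totals made equal and 7 with equal upper quartiles, while WT kept 2. The share of all genes called moved as well. With 1 library left out it ran from 0.693% to 13.7% in WT and from 11.9% to 18.4% in KO. It was 1.09% in WT without a variance trend and 14.1% in KO with the replicate block. Median log2 fold changes with a minimum mean of 50 were 0.094 in WT, 0.17 in KO and 0.027 for the interaction, and 0.036 in WT with library totals made equal. Leaving out 1 library gave medians of -0.020 to 0.058 for KO against WT at P60 and 0.0040 to 0.12 for the interaction. The correlation of Ccdc40 with the cilia score became 0.56 with group means subtracted, 0.039 without the 2 libraries farthest from the median score, and -0.33 to 0.059 with 1 library left out. That of Cfap157 became 0.15 with group means subtracted, -0.41 with library totals made equal, and -0.61 to -0.41 with 1 library left out. The cause of these shifts was not tested. The reads behind the values are unknown, and 26 of the 46 genes had a mean under 100 normalized counts, which limits how small a difference could be seen.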
